A study of Mus musculus with 11 samples.

Results

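AMPA receptors carry most of the fast excitatory current at glutamatergic synapses, and 10 genes that encode their pore-forming subunits or auxiliary proteins were examined in mPFC CRF1+ neurons of naïve and withdrawn mice. The genes were chosen by name, out of 53465 genes in the count files: the subunits Gria1, Gria2, Gria3 and Gria4, the transmembrane AMPA receptor regulatory proteins (TARPs) Cacng2, Cacng3 and Cacng8, the cornichons Cnih2 and Cnih3, and the CKAMP protein Shisa9. All 10 passed the filter on low counts. RNA came from neurons sorted by fluorescence from the medial prefrontal cortex (mPFC) of single adult male CRF1:GFP mice, at least 10 weeks old, in which GFP marks cells that express the corticotropin releasing factor receptor CRF1. Both groups therefore carried the same reporter and differed in their exposure. The 6 naïve mice received the alcohol dehydrogenase inhibitor pyrazole and breathed air. The 5 withdrawn mice received ethanol with pyrazole, breathed ethanol vapor intermittently for 5 to 6 weeks, and were then abstinent for 5 to 8 days. The comparison asks whether the transcripts of this receptor differ in these neurons during withdrawal.

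An AMPA receptor is a tetramer of the proteins GluA1 to GluA4, which Gria1 to Gria4 encode. TARPs, cornichons and CKAMP proteins bind to the tetramer, carry it to the synapse and set how quickly it opens, closes and desensitizes. In the cortex, receptors of pyramidal neurons are rich in GluA1 and GluA2, whereas GluA4 is best known from fast-spiking interneurons. GluA2 makes the pore nearly impermeable to calcium, because its transcript is edited by the enzyme ADAR2 at a single codon of the pore loop, the Q/R site.

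The 4 subunit genes are shown here at that codon, since it is the place where Gria2 is set apart from the others in RNA while the genomic letters stay close. Each line gives 45 bases of coding sequence, 5′ to 3′ on the coding strand, within 1 exon of the GENCODE M21 annotation of GRCm38. The capitals mark the Q/R-site codon.
Gria1 (chr11:57243073-57243117, plus strand): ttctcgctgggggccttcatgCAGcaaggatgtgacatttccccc
Gria2 (chr3:80706890-80706934, minus strand): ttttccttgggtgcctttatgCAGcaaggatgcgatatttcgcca
Gria3 (chrX:41610244-41610288, plus strand): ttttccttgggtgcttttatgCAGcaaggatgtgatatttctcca
Gria4 (chr9:4464116-4464160, minus strand): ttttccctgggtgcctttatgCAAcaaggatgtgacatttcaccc
Over these 45 bases, 42 were the same in Gria3 as in Gria2, 39 in Gria4 and 36 in Gria1. The codon of Gria1, Gria2 and Gria3 was CAG, and that of Gria4 was CAA. A gene count adds up reads over all exons, so it does not show how much of the Gria2 transcript was edited.

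Some facts apply to every value that follows. Each mouse gave 7351567 to 22244869 counts on genes, spread over 15585 to 31830 genes. Levels are given as CPM, counts scaled to the TMM-normalized library size, and 3 counts in a library were worth 0.140 to 0.369 CPM. The naïve mouse 5 had the fewest genes detected and the smallest share of reads assigned to no annotated feature (5.77%). The withdrawn mouse 4 had the most genes, the largest share of such reads (48.1%) and the fewest counts. Between them these mice had the lowest CPM for 9 of the 10 genes, the naïve mouse 5 for 4 and the withdrawn mouse 4 for 5. Another label reads control for the withdrawn mice 3, 4 and 5, and the deposit's design text gives 5 control and 6 ethanol mice. Crhr1, which encodes CRF1, was detected in every mouse, at a mean of 92.7 CPM in naïve and 89.3 CPM in withdrawn mice. The 6 glutamatergic markers summed to 1698 to 2671 CPM in naïve and 1173 to 2607 CPM in withdrawn mice.

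None of the 10 genes was called different between withdrawn and naïve mice by edgeR, which required both an adjusted p no higher than 0.05 and a change of more than 0.6 on the log2 scale. Over all 17093 genes tested, 1 was called (0.00585%). At an unadjusted p under 0.05, 2 of the 10 genes passed, Cacng2 and Cnih2, both with lower levels in withdrawn mice, where the share over all genes was 7.22% in either direction and 2.22% in the lower direction. DESeq2 called none of the 10, against 362 of 21849 genes in all (1.66%). Limma voom, run with a quality weight for each mouse, called none of the 10, against 1 of 17093 genes in all. The log2 fold change was negative for 8 of the 10 genes (48.2% over all genes), with a median of −0.30 beside 0.021 over all genes tested. The median standard error of the 10 log2 fold changes was 0.206, against 0.439 over all genes. The 95% interval lay within a log2 fold change of 1 in either direction for 9 of the 10, Cacng8 being the exception, and for 38.7% of all genes. In pooled RNA of sorted cells, fewer cells of a type and less RNA per cell cannot be told apart.

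**Figure D1:**
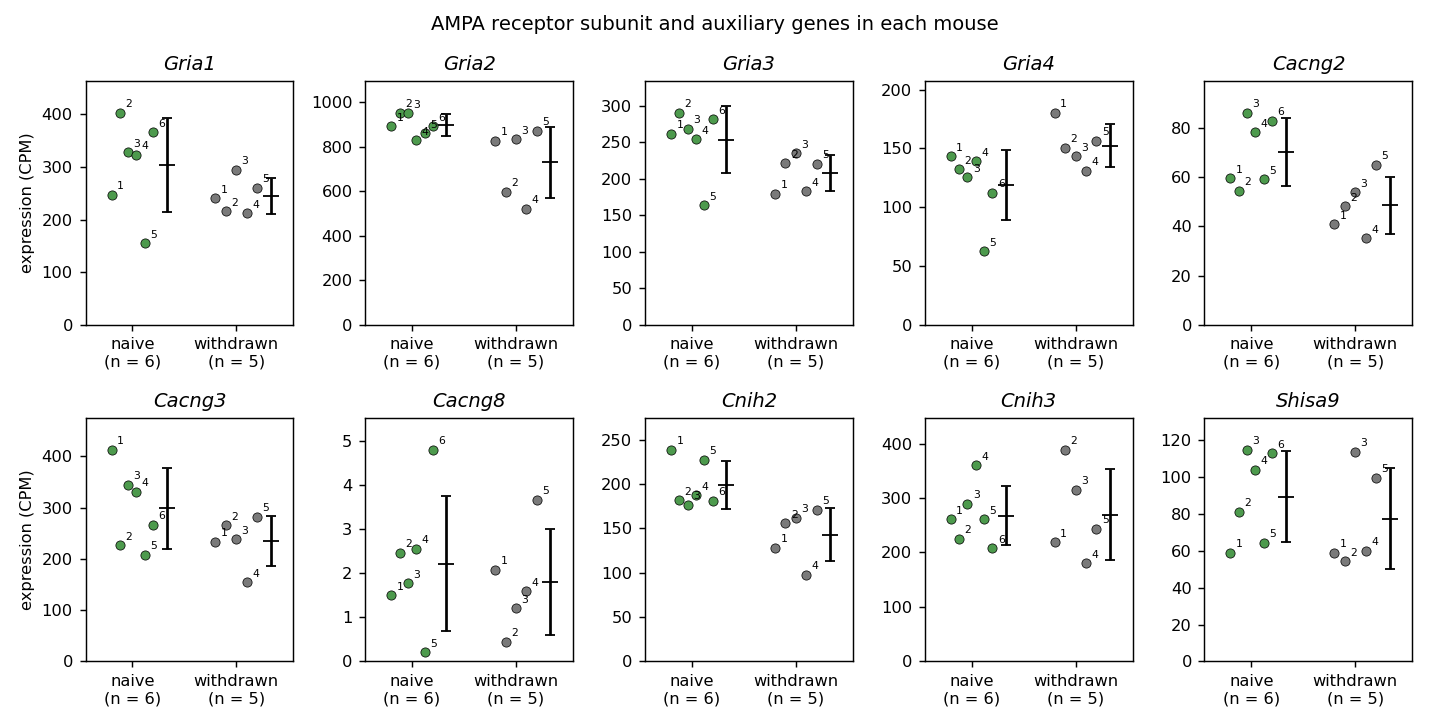
Expression of the 10 genes in CPM (vertical axes, from 0) in each naïve mouse (green points, n = 6) and each withdrawn mouse (grey points, n = 5), with mouse numbers beside the points and the mean ± SD as a black bar. The points of the 2 groups overlap for 9 genes, and for Cnih2 the 5 withdrawn mice, at 97.9 to 171 CPM, lie below the lowest naïve mouse at 177 CPM.

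Levels can be set side by side between genes only per length of transcript, and the following values are RPKM, that is CPM divided by the kilobases of annotated exon. In naïve mice the order of mean levels was Cnih2 (145 RPKM), Cacng3 (107 RPKM), Cnih3 (97.3 RPKM), Gria2 (57.7 RPKM), Gria1 (50.3 RPKM), Gria3 (25.7 RPKM), Gria4 (18.9 RPKM), Shisa9 (17.1 RPKM), Cacng2 (12.7 RPKM) and Cacng8 (0.948 RPKM). Neighbours in this order overlapped in their ranges over the 6 naïve mice, except at 2 steps, from Cnih3 down to Gria2 and from Cacng2 down to Cacng8. The genes other than Cacng8 stood high among all genes tested: 98.1% of the genes had a lower naïve level than Cnih2, and 75.7% a lower level than Cacng2. Only 24.3% had a lower level than Cacng8. Such levels depend on the length assigned to each gene, which for Gria2 was 15548 bases of merged exons but 10371 bases in its longest transcript.

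Gria2 (ENSMUSG00000033981, chr3:80681450-80802835) encodes GluA2, the subunit that limits calcium entry, and gave the most counts of the 10 genes. Naïve mice lay between 831 and 952 CPM, with a median of 893 CPM. The withdrawn mice 1 to 5 had 826, 597, 833, 522 and 871 CPM. The naïve mice were close together, and the withdrawn mice were split, with mice 2 and 4 far lower and the other 3 near or within the naïve range. Of all mice, the withdrawn mice 2 and 4 also had the largest shares of reads assigned to no annotated feature (39.6% and 48.1%) and the fewest counts on genes. The part of library quality in these values was not tested. In all, 3 of the 5 withdrawn mice lay below the lowest naïve mouse. The mean was 897 ± 48.6 CPM in naïve (SD, n = 6) and 730 ± 158.5 CPM in withdrawn mice (SD, n = 5). The log2 fold change was −0.30 with a standard error of 0.15 and a 95% interval of −0.62 to 0.03 (edgeR adjusted p = 0.743), and the difference did not pass the test.

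Gria1 (ENSMUSG00000020524, chr11:57011387-57330244) encodes GluA1, the subunit whose insertion accompanies synaptic potentiation. It ranged from 155 to 403 CPM in naïve mice, with a median of 326 CPM. In withdrawn mice 1 to 5 the values were 240.6, 215, 295, 212 and 260.3 CPM. All 5 withdrawn mice lay below the naïve median, yet the lowest mouse of all was the naïve mouse 5. The means were 304 ± 89.5 CPM (SD, n = 6) and 245 ± 34.2 CPM (SD, n = 5). On the log2 scale the fold change was −0.31 with a standard error of 0.21 and a 95% interval of −0.77 to 0.15 (edgeR adjusted p = 0.833).

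Gria3 (ENSMUSG00000001986, chrX:41400854-41678601) encodes GluA3, which pairs mostly with GluA2. Its naïve values ran from 164 to 290.3 CPM around a median of 265 CPM. Withdrawn mice 1 to 5 reached 179.6, 222, 235, 183 and 220.4 CPM. The withdrawn values again lay below the naïve median in every mouse and above the naïve mouse 5, which was far below the other naïve mice. Withdrawn over naïve, the log2 fold change was −0.28 with a standard error of 0.16 and a 95% interval of −0.63 to 0.06 (edgeR adjusted p = 0.780).

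Gria4 (ENSMUSG00000025892, chr9:4417896-4796234) encodes GluA4 and was the only subunit gene with a higher mean in withdrawn mice. In naïve mice it ran from 62.8 to 143 CPM, with a median of 129 CPM. Across withdrawn mice 1 to 5 it was 180.3, 151, 143, 131 and 157 CPM. All 5 withdrawn mice stood above the naïve median and 4 of them above the highest naïve mouse, mouse 3 by a margin of less than 1 CPM. The means were 119 ± 29.7 CPM (SD, n = 6) and 152 ± 18.2 CPM (SD, n = 5), which gives a ratio of 1.28. Its log2 fold change was 0.35 with a standard error of 0.20 and a 95% interval of −0.07 to 0.78 (edgeR adjusted p = 0.776). The 8 GABAergic markers, among them genes of the interneurons in which GluA4 is best known, summed to 85.1 to 928 CPM in naïve and 32.1 to 730 CPM in withdrawn mice, and none was at 0 in all mice of a group. Of the 8, 6 had a positive and 2 a negative log2 fold change, and none was called by edgeR. The sum was moved most by Sst, at a mean of 247 CPM in naïve and 6.53 CPM in withdrawn mice (edgeR adjusted p = 0.545). Sst ran from 0.0677 to 699 CPM in naïve mice, and from 0 to 32.6 CPM in withdrawn mice with a median of 0. The 7 other GABAergic markers summed to 194 ± 90.9 CPM in naïve (SD, n = 6) and 341 ± 295 CPM in withdrawn mice (SD, n = 5), with ranges of 85.1 to 315 CPM and 32.1 to 730 CPM, a split made after the values were seen. Pvalb, the marker of fast-spiking interneurons, stayed at or under 2.59 CPM in naïve and 2.83 CPM in withdrawn mice. Means in naïve and withdrawn mice were 87.7 and 155 CPM for Gad1, 39.9 and 57.5 CPM for Gad2, and 49.6 and 101 CPM for Vip. Lhx6 went the other way, at 3.83 and 2.31 CPM, and the groups overlapped for each of these markers. The part of GABAergic cells in the Gria4 values was not tested. Without the naïve mouse 5, which had the lowest Gria4 level, the log2 fold change of Gria4 was 0.23 (edgeR adjusted p = 0.763).

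Set against each other within a mouse, the 4 subunits kept most of their proportions, and Gria4 stood out. As a share of the summed RPKM of the 4 genes, Gria2 made up 38.6 ± 6.55% in naïve and 35.1 ± 3.38% in withdrawn mice. That difference of −3.56 percentage points was −0.999 without the naïve mouse 5. Gria1 made up 32.3 ± 5.39% and 30.5 ± 1.93%, and Gria3 16.8 ± 0.856% and 16.0 ± 2.11%. The groups overlapped for all of these shares. The share of Gria4 ran from 9.26% to 15.4% in naïve mice, with a median of 12.0%. In the withdrawn mice 1 to 5 it was 20.5%, 19.8%, 15.3%, 19.3% and 17.0%. Thus 4 of 5 withdrawn mice exceeded every naïve mouse, and the remaining one, mouse 3, lay just under the naïve mouse 1. The ratio of Gria4 to Gria1 in RPKM was 0.389 ± 0.0931 in naïve and 0.605 ± 0.0964 in withdrawn mice, again with 4 of 5 withdrawn mice above the naïve range. These shares and ratios were formed from several of the genes at once and are given without a test. Measured on the longest transcript, the mean share of Gria4 was 10.2% in naïve and 15.5% in withdrawn mice, and as a share of plain counts it was 7.51% and 11.6%.

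**Figure D2:**
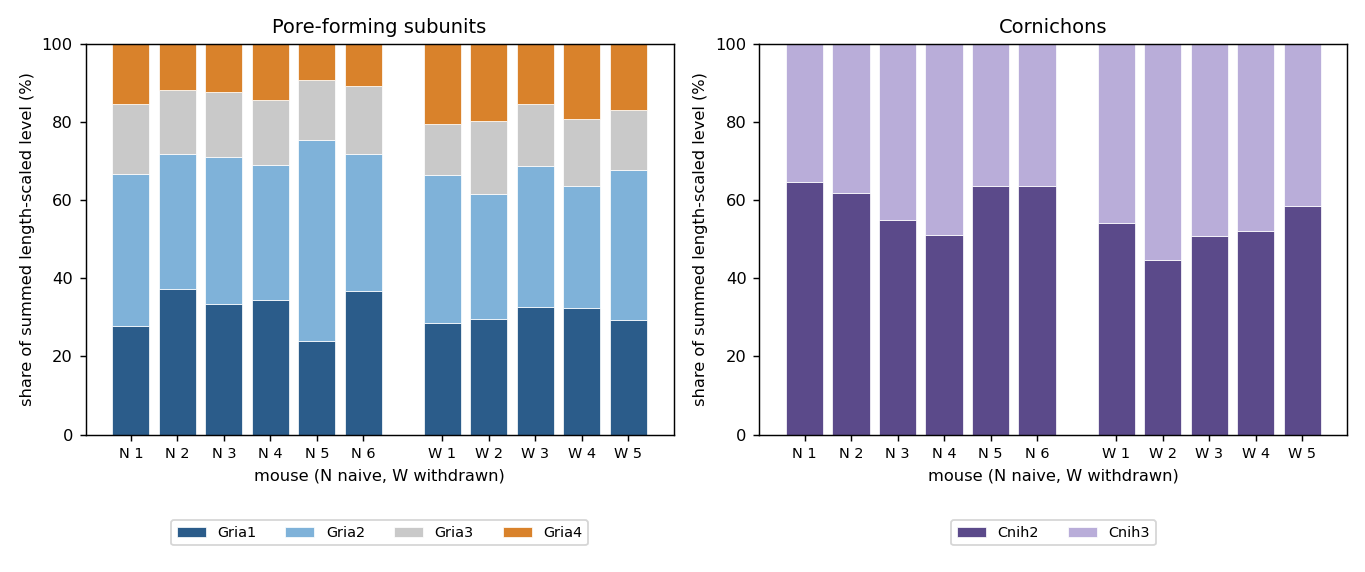
Share of each gene (percent, vertical axes) in the summed length-scaled level of Gria1 to Gria4 (left) and of Cnih2 and Cnih3 (right), 1 bar for each naïve (N) and withdrawn (W) mouse. The orange Gria4 segment takes 9.26% to 15.4% in naïve and 15.3% to 20.5% in withdrawn mice, and the dark Cnih2 segment takes 51.1% to 64.7% in naïve and 44.6% to 58.5% in withdrawn mice.

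The summed level of the 4 subunit genes was 153 ± 24.4 RPKM in naïve and 133 ± 17.7 RPKM in withdrawn mice, and the ranges overlapped. Transcripts of NMDA receptors, the slower glutamate receptors that pass calcium, served as a comparison within the same library. These levels are of RNA in sorted cells and are not the receptor currents that the study recorded. The summed level of 7 NMDA receptor genes was 52.6 ± 14.8 RPKM and 51.0 ± 9.97 RPKM. The ratio of the AMPA to the NMDA sum was 3.05 ± 0.669 in naïve and 2.66 ± 0.435 in withdrawn mice. It lay between 2.48 and 4.30 in naïve mice, with the naïve mouse 5 highest and the other naïve mice at 2.48 to 3.08. The naïve mouse 5 had the lowest naïve level of both sums, 108 RPKM for AMPA and 25.0 RPKM for NMDA receptor genes. The naïve medians were 159 RPKM and 57.4 RPKM. The ratio was 2.79, 1.91, 2.78, 3.05 and 2.77 in the withdrawn mice 1 to 5. Apart from the withdrawn mouse 2, the withdrawn mice fell within the naïve range.

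The TARPs tie the receptor to the postsynaptic scaffold through a short stretch at their C-terminal end, which binds PDZ domains of proteins such as PSD-95. The last 30 coding bases before the stop codon are shown for the 3 genes because this end is what they have in common, whereas their levels in these cells were far apart. The capitals mark the last 12 bases, which encode the PDZ-binding end.
Cacng2 (chr15:77995152-77995181, minus strand): aacacagccaaccgccggACCACGCCCGTA
Cacng3 (chr7:122768814-122768843, plus strand): aatccggccaacagacgtACCACGCCTGTC
Cacng8 (chr7:3415573-3415602, plus strand): aacacgctcaacaggaaaACCACGCCCGTG

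Cacng2 (ENSMUSG00000019146, chr15:77991748-78120028) encodes stargazin, the founding TARP, and had the most negative log2 fold change of the 10 genes. Naïve mice lay between 54.4 and 86.2 CPM, with a median of 69.0 CPM. The values of withdrawn mice 1 to 5 were 40.8, 48.2, 53.8, 35.3 and 65.1 CPM. The groups overlapped only through the withdrawn mouse 5, and the other 4 withdrawn mice were below the lowest naïve mouse. The means were 70.1 ± 13.9 CPM (SD, n = 6) and 48.7 ± 11.6 CPM (SD, n = 5), which gives a ratio of 0.694. The log2 fold change was −0.53 with a standard error of 0.21 and a 95% interval of −0.97 to −0.08. The unadjusted p of 0.0242 did not survive adjustment over all genes (edgeR adjusted p = 0.563, DESeq2 adjusted p = 0.274). Of the exon bases of Cacng2, 5.86% are shared with the antisense gene A730060N03Rik, and without strand information reads there cannot be assigned to either gene.

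Cacng3 (ENSMUSG00000066189, chr7:122670492-122769393), which encodes the TARP γ-3 of cortical neurons, was the leading TARP in these cells. Its naïve values ran from 208 to 413 CPM, with a median of 299 CPM. The withdrawn mice 1 to 5 had 234, 265.5, 239, 155 and 283 CPM. Every withdrawn mouse was below the naïve median, but 4 of the 5 were within the naïve range. On the log2 scale the fold change was −0.34 with a standard error of 0.21 and a 95% interval of −0.79 to 0.10 (edgeR adjusted p = 0.799). Of the summed RPKM of the 3 TARP genes, Cacng3 made up 88.4 ± 2.59% in naïve and 89.8 ± 1.38% in withdrawn mice, and Cacng2 10.8 ± 2.28% and 9.40 ± 1.11%.

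Cacng8 (ENSMUSG00000053395, chr7:3390683-3415648), which encodes the TARP γ-8 best known from the hippocampus, had the fewest reads of the 10 genes, and the naïve mouse 5 and the withdrawn mouse 2 were near the floor of 3 counts. Naïve mice had 3 to 78 reads, or 0.203 to 4.82 CPM with a median of 2.13 CPM. In withdrawn mice 1 to 5 the values were 29, 4, 26, 13 and 52 reads, or 2.09, 0.448, 1.21, 1.60 and 3.68 CPM. The groups spanned nearly the same range. Withdrawn over naïve, the log2 fold change was −0.30 with a standard error of 0.81 and a 95% interval of −2.03 to 1.43 (edgeR adjusted p = 0.970), an interval that includes a 2-fold difference in either direction. Cacng8 made up 0.802 ± 0.611% of the TARP level in naïve and 0.826 ± 0.466% in withdrawn mice. The level rests on a short gene model: the RefSeq model of Cacng8 on the same assembly extends 618 bases further at the 3′ end than the GENCODE model, and the model the authors counted on was not checked.

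The cornichons were the most and the third most abundant of the 10 genes per length. Cnih2 (ENSMUSG00000024873, chr19:5092868-5098521), which encodes an endoplasmic reticulum export factor that stays with AMPA receptors at the synapse and slows their closing, lay between 177 and 239 CPM in naïve mice, with a median of 185 CPM. Withdrawn mice 1 to 5 reached 128, 156, 162, 97.9 and 171 CPM. Every withdrawn mouse was below every naïve mouse, and Cnih2 was the only 1 of the 10 genes whose groups did not overlap, as did those of 162 of 17093 genes overall (0.948%). The means were 199 ± 27.0 CPM (SD, n = 6) and 143 ± 29.9 CPM (SD, n = 5), which gives a ratio of 0.719. Its log2 fold change was −0.48 with a standard error of 0.17 and a 95% interval of −0.84 to −0.12. With an unadjusted p of 0.0132 it had the smallest p of the 10 genes, and it did not pass after adjustment (edgeR adjusted p = 0.464, DESeq2 adjusted p = 0.230).

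Cnih3 (ENSMUSG00000026514, chr1:181352628-181460641), the closest relative of Cnih2, had nearly equal means of 268 ± 53.9 CPM (SD, n = 6) and 269 ± 82.9 CPM (SD, n = 5). Naïve mice lay between 208 and 360.4 CPM, with a median of 262 CPM. Across withdrawn mice 1 to 5 it was 218, 389, 315, 181 and 244 CPM, so that both the highest and the lowest mouse of all were withdrawn mice. The log2 fold change was 0.0090 with a standard error of 0.21 and a 95% interval of −0.43 to 0.45 (edgeR adjusted p = 0.995). The ratio of Cnih3 to Cnih2 in RPKM was 0.679 ± 0.168 in naïve mice and 0.938 ± 0.197 in withdrawn mice, with all 5 withdrawn mice above the naïve median and 2 of them above the naïve range. Cnih2 thus made up 60.0 ± 5.58% of the cornichon level in naïve and 52.0 ± 5.09% in withdrawn mice, given without a test.

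Shisa9 (ENSMUSG00000022494, chr16:11984113-12270902) encodes CKAMP44, an auxiliary protein that prolongs desensitization of the receptor. Naïve mice lay between 59.0 and 115 CPM, with a median of 92.6 CPM. The values of withdrawn mice 1 to 5 were 59.0, 54.4, 114, 60.1 and 99.8 CPM. Both groups held mice near 60.1 CPM and mice near 114 CPM, and they overlapped almost completely. On the log2 scale the fold change was −0.21 with a standard error of 0.25 and a 95% interval of −0.75 to 0.34 (edgeR adjusted p = 0.926). In the fit that left out the withdrawn mice 3, 4 and 5, Shisa9 had a log2 fold change of −0.71 (edgeR adjusted p = 0.789), and the 2 withdrawn mice kept had 59.0 and 54.4 CPM.

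The negative sign of most members was shared with general neuronal genes. All 12 pan-neuronal genes, among them Snap25, Map2 and Rbfox3, had a negative log2 fold change (48.2% over all genes), with a median of −0.30. None was called by edgeR (1 of 17093 over all genes), and 4 had an unadjusted p under 0.05 (7.22% over all genes). Their summed level was 11823 to 15239 CPM in naïve mice. It was 9898, 10516, 11618, 7469 and 12008 CPM in the withdrawn mice 1 to 5, so that only mouse 5 reached the naïve range. When the libraries were scaled to the sum of these 12 genes, the median log2 fold change of the 10 members was 0.015 in place of −0.30, and 4 of the 10 were negative. This scaling moved the median over all genes tested from 0.021 to 0.38. Relative to the pan-neuronal genes, Gria1 (0.0018), Gria2 (0.028), Gria3 (0.043), Shisa9 (0.089) and Cnih3 (0.34, 95% interval −0.05 to 0.73, edgeR adjusted p = 0.437) had positive signs, whereas Cacng2 (−0.22), Cnih2 (−0.15), Cacng3 (−0.025) and Cacng8 (−0.030) stayed negative. Gria4 then had a log2 fold change of 0.69 with a standard error of 0.23 and a 95% interval of 0.20 to 1.19, and did not pass after adjustment (edgeR adjusted p = 0.228). The 95% interval of Cnih2 on this scale was −0.40 to 0.11.

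**Figure D3:**
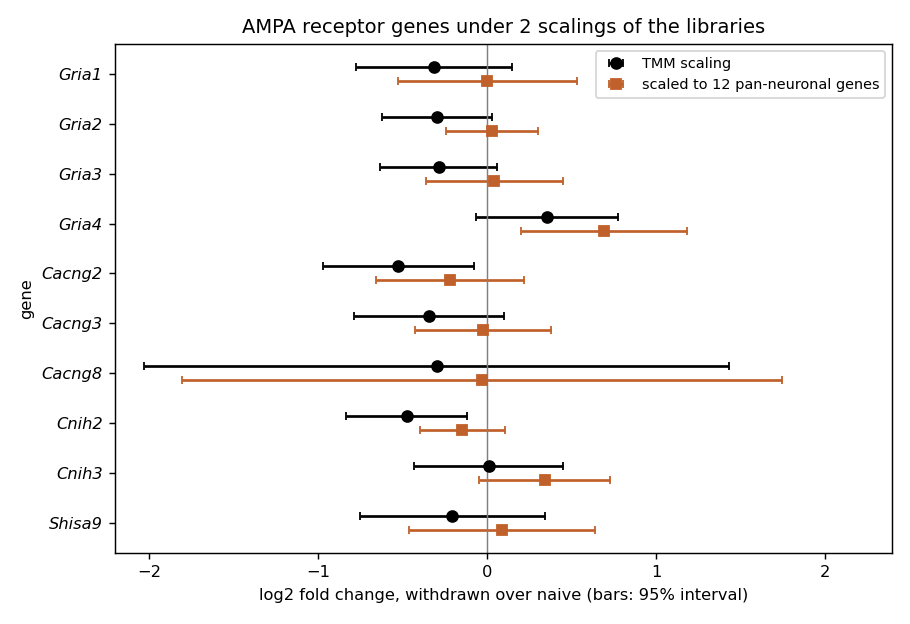
Log2 fold change of withdrawn over naïve mice for each gene (horizontal axis), with 95% intervals as bars, under TMM scaling (black circles) and with libraries scaled to 12 pan-neuronal genes (orange squares). The points of all 10 genes move to the right under the second scaling, Gria4 from 0.35 to 0.69 and Cnih2 from −0.48 to −0.15.

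Markers of other cell types differed between the libraries. The 5 fibroblast markers summed to 0.0677 to 51.3 CPM in naïve mice and to 1116, 11.8, 502, 740.1 and 181 CPM in the withdrawn mice 1 to 5, and the 4 of them that were tested had positive log2 fold changes with a smallest edgeR adjusted p of 0.157. The 5 astrocyte markers summed to 9.41 to 153 CPM in naïve and 12.6 to 355 CPM in withdrawn mice. Of the 4 tested, only 1 had a positive log2 fold change and 3 a negative one, with a smallest edgeR adjusted p of 0.250. The 5 microglial markers stayed at or under 7.03 CPM in naïve and 16.8 CPM in withdrawn mice. Of the 3 tested, 1 had a positive and 2 a negative log2 fold change. The 4 markers of oligodendrocyte precursors, another cell type with AMPA receptors, stayed at or under 14.7 CPM and 26.6 CPM, and the 2 tested had positive log2 fold changes. The 5 oligodendrocyte markers summed to 108 to 246 CPM in naïve and 86.8 to 229 CPM in withdrawn mice, and the 4 endothelial markers to 0.203 to 368 CPM and 32.3 to 276 CPM. Among the withdrawn mice, mouse 4, with the lowest Gria2, had the most astrocyte, endothelial, microglial and oligodendrocyte precursor marker signal. Its glutamatergic marker sum was the lowest, at 1173 CPM. Mouse 2, with the second lowest Gria2, had the least fibroblast and astrocyte marker signal, and the highest glutamatergic marker sum, at 2607 CPM. The part of other cell types in the values of the 10 genes was not tested. Without the naïve mouse 5 and the withdrawn mouse 4, the median log2 fold change of the 10 genes was −0.32 with 8 negative, and without the 3 withdrawn mice with conflicting labels it was −0.43 with 8 negative.

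The wider pathway was examined in 47 further genes, of which 45 were tested. Cacng7 had at most 11 counts in any mouse. Shisa8 did not pass the filter either, although its highest count in a mouse was 672. It ran from 0 to 4.31 CPM in naïve mice, and from 0 to 48.4 CPM in withdrawn mice with a median of 0.123 CPM. None of the 45 was called by edgeR, DESeq2 or limma voom. Over all genes, edgeR and limma voom each called 1 of 17093, and DESeq2 called 1.66%. In edgeR, 2 of the 45 had an unadjusted p under 0.05, both lower in withdrawn mice. The share over all genes was 7.22% in either direction and 2.22% in the lower direction. The log2 fold change was negative for 33 and positive for 12, where 48.2% of all genes were negative. Its median was −0.11 beside −0.30 for the 10 members and 0.021 for all genes.

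Among the other auxiliary subunits, 10 of 13 tested genes had a negative log2 fold change. Olfm1, a secreted olfactomedin protein found in native AMPA receptor complexes, was the most abundant, at 1590 ± 558 CPM in naïve (SD, n = 6) and 1125 ± 219.8 CPM in withdrawn mice (SD, n = 5), and its log2 fold change was −0.50 ± 0.23 (± standard error here and in the following, edgeR adjusted p = 0.683). Shisa7, another CKAMP protein, had 58.1 ± 16.0 CPM and 37.9 ± 15.0 CPM, with a log2 fold change of −0.62 ± 0.32 (edgeR adjusted p = 0.756). Olfm2, related to Olfm1, had a log2 fold change of −0.44 ± 0.25 (edgeR adjusted p = 0.783).

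All 7 genes of assembly and the endoplasmic reticulum had a negative log2 fold change, 6 of them between −0.24 and −0.0022. Frrs1l, which acts in the assembly of AMPA receptors in the endoplasmic reticulum, was the most abundant and had equal means of 472 ± 121 CPM and 471 ± 97.1 CPM, a log2 fold change of −0.0022 ± 0.20 (edgeR adjusted p = 0.999). Its partner Cpt1c had −0.17 ± 0.16 (edgeR adjusted p = 0.892), and the lipase gene Abhd12 had −0.24 ± 0.16 (edgeR adjusted p = 0.832). Rap2b, a small GTPase, had the largest difference of this group, from 43.5 ± 20.6 CPM to 28.3 ± 4.43 CPM, with a log2 fold change of −0.62 ± 0.29 (edgeR adjusted p = 0.686).

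Of 19 genes of trafficking and anchoring, 13 had a negative and 6 a positive log2 fold change, with a median of −0.037. Nsf, the ATPase that binds GluA2, was the most abundant, at 1860 ± 188 CPM and 1718 ± 403 CPM. The smallest p values belonged to Snx27, a sorting protein of endosomal recycling, with a log2 fold change of 0.39 ± 0.19 (edgeR adjusted p = 0.724), to Akap5, which anchors kinases and phosphatases beside the receptor, with −0.41 ± 0.20 (edgeR adjusted p = 0.731), and to Grip1, a scaffold that binds GluA2 and GluA3, with 0.68 ± 0.39 (edgeR adjusted p = 0.780).

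The neuronal pentraxins gather AMPA receptors from outside the cell. Nptx2 had 50.6 ± 17.3 CPM in naïve and 31.6 ± 14.4 CPM in withdrawn mice, its log2 fold change being −0.68 ± 0.34 (edgeR adjusted p = 0.724). Nptx1 had −0.40 ± 0.25 (edgeR adjusted p = 0.816), and the pentraxin receptor Nptxr, the most abundant, had 0.040 ± 0.26 (edgeR adjusted p = 0.987). Of the editing enzymes, Adarb1, which encodes the ADAR2 that edits the Q/R-site codon of Gria2 shown above, had 61.6 ± 11.1 CPM and 56.3 ± 11.8 CPM, with a log2 fold change of −0.13 ± 0.20 and a 95% interval of −0.56 to 0.30 (edgeR adjusted p = 0.945). Adar had 0.31 ± 0.24 (edgeR adjusted p = 0.864). Adarb2, which is not known to edit and is also on the list of GABAergic markers, had 1.01 ± 0.62 (edgeR adjusted p = 0.805).

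**Figure D4:**
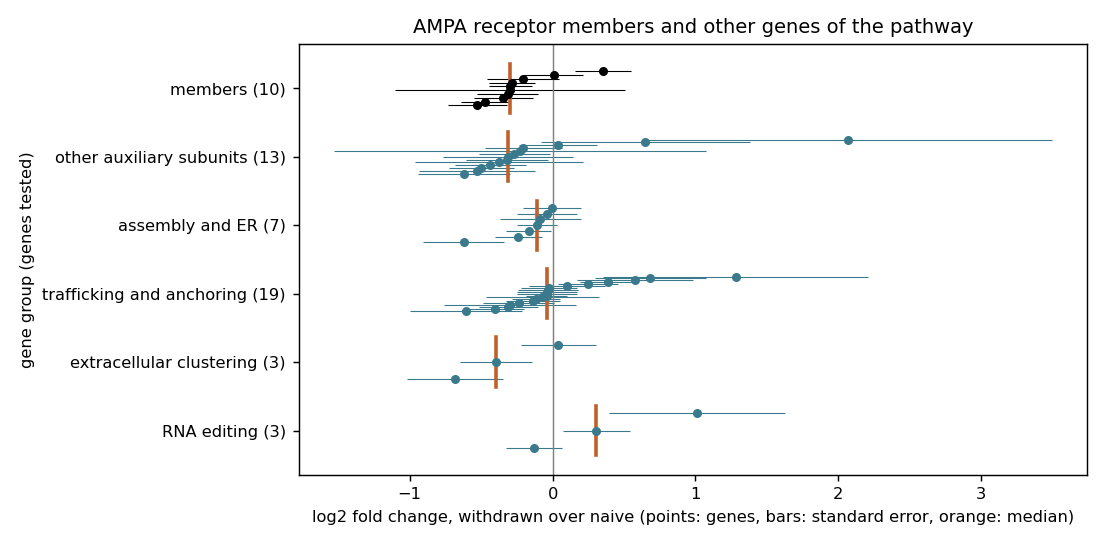
Log2 fold change of withdrawn over naïve mice (horizontal axis) for the 10 members (black) and for 45 other tested genes of the pathway by group (blue), with bars of 1 standard error and the group median in orange. The medians are −0.30 for the members, −0.31 for other auxiliary subunits, −0.11 for assembly, −0.037 for trafficking, −0.40 for extracellular clustering and 0.31 for RNA editing, and no gene passed the test.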

How the data were processed

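RNA of sorted mPFC CRF1+ neurons was sequenced from 6 naïve and 5 withdrawn male CRF1:GFP mice, with 1 mouse per library and 160 pg of RNA per library. Per the study's methods, cDNA was made with the SMARTseq HT kit, reads of 75 nt were trimmed with cutadapt, mapped to GRCm38 with STAR, and counted per Ensembl gene with HTSeq. Whether counting used strand is not given in the sources used here. The deposited values are raw counts per gene and mouse as the authors made them, without normalization. The 5 tally lines that name no gene (18.9% to 58.0% of all reads listed) were left out of library sizes and tests. No column of a sample outside the series was present (0).

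Mice were grouped by their recorded treatment. The members and gene lists were chosen with earlier results of these data known. All 10 members are described. Of the 47 pathway genes, any called gene, up to 3 per group with the smallest p, and the most abundant per group are named. Pairs of libraries within a group differed by a chi-square per degree of freedom of at least 25.6, so none was a duplicate.

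Counts were fitted over all genes with edgeR 4.0.16 in R 4.3.3 (TMM, filterByExpr with a minimum count of 10 and a minimum total of 15, quasi-likelihood test, Benjamini-Hochberg adjustment over 17093 genes), after the script was tested on simulated data. Calls required an adjusted p no higher than 0.05 together with a change of more than 0.6 on the log2 scale. Standard errors were obtained from the fold change and the F statistic of each gene (size over root F). CPM used TMM library sizes, log2 CPM a prior count of 2, and RPKM the merged exons of GENCODE M21. Sequences and coordinates come from that GRCm38 annotation, another release than the one counted on. Counts on genes numbered 7351567 to 22244869 per mouse. The 95% intervals come from the edgeR fit and include the spread between mice, whereas the floor of 3 counts covers counting error only, since reads come from amplified cDNA without molecular identifiers.

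Alternatives were DESeq2 1.42.0 (the tool of the study's own methods), limma voom 3.58.1, other size factors, scaling to 12 pan-neuronal genes, other filters and thresholds, a replicate block, and mice left out. Limma voom was run with quality weights for the mice throughout. The fit without both the naïve mouse 5 and the withdrawn mouse 4 was chosen after seeing the data. Recordings, images and behavioral data of the study were not analysed here.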

Additional observations from a re-analysis of the deposited data

Results flagged for a closer look

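Of 38 sets of values examined (levels of the 10 genes, shares and ratios, each within 1 group), 5 had a single mouse set well apart by Dixon's criterion, where chance gives about 1 in 20, or 1.9 sets. The sets share genes and libraries and are not independent, so 1 library can be flagged several times. The naïve mouse 5 accounted for 4 of the 5 flagged sets. Its Gria3 level was 7.36 log2 CPM, against 7.99 to 8.18 in the other naïve mice. Its Gria4 level was 5.98 log2 CPM, against 6.81 to 7.16. Gria2 made up 51.5% of its summed subunit level, against 34.3% to 38.9%. Its ratio of AMPA to NMDA receptor genes was 4.30, against 2.48 to 3.08. The same ratio in the withdrawn mouse 2 was 1.91, against 2.77 to 3.05 in the other withdrawn mice. Without the naïve mouse 5 alone, the log2 fold change of Gria4 was 0.23 in place of 0.35, that of Gria3 was −0.38 in place of −0.28, and the Gria2 share differed by −0.999 in place of −3.56 percentage points. Without both the naïve mouse 5 and the withdrawn mouse 4, Gria4 had 0.27 and Gria3 −0.34.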

How the results depend on the processing

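No member and no pathway gene was called with any of the 11 mice left out or under the 12 other alternatives run. The count of genes called overall was 1, and it was 362 with DESeq2, 137 without the low-count filter, 30 with at least 10 counts in every mouse (which left out Cacng8), 37 at a looser adjusted p of 0.1 without a fold threshold, 0 without the 3 mice with conflicting labels, 0 without the naïve mouse 5 and the withdrawn mouse 4, and 0 to 193 with single mice left out, the highest without the withdrawn mouse 2. Scaling to pan-neuronal genes left 4 of the 10 members negative, with a median of 0.015, and turned Gria1 (0.0018), Gria2 (0.028), Gria3 (0.043) and Shisa9 (0.089). In the other alternatives 8 or 9 members were negative, or 7 of the 9 tested with at least 10 counts in every mouse. The median over all genes in the DESeq2 fit, which had no such filter, was 0.25. Cnih3 was −0.094 with limma voom, −0.0086 without the filter, 0.34 with pan-neuronal scaling, and between −0.17 and 0.13 with single mice left out. Cacng8 was 0.084 without the naïve mouse 6 and −0.74 at the other end of the fits with single mice left out, and −0.83 without the 3 mice with conflicting labels. With a replicate block, 0 genes were called and Cnih3 was −0.089. Same-numbered mice are different animals and their deviations correlated between −0.200 and 0.182, so the block does not pair them. The cause of these changes was not tested. With 5 and 6 mice, differences of the size seen for most members could not be told from 0, and the interval of Cacng8 was the widest.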
